A study of Mus musculus with 6 samples.

Results

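Craniofacial patterning transcription factors were examined in RNA sequencing of mouse calvarial osteoblasts. The group was set as a list of gene names, drawn up with earlier results of these data known, and holds 8 genes: Alx1, Alx4, Six2, Prrx1, Prrx2, Tbx15, Tbx18 and Zic1. All 8 were among the 55471 genes of the deposited table, and all 8 were among the 13826 genes that passed the filter on low counts. Primary osteoblasts, the bone-forming cells of the skull cap, were taken from mice of the strain C57BL/6 at an age of 3 days, cultured, and harvested for poly(A) RNA. Wild type (WT) cells were compared with cells labelled TCKO, which carry Prx1-Cre and loxP-flanked alleles of all TET genes (Tet1 fl/fl, Tet2 fl/fl and Tet3 fl/fl), with 3 libraries per genotype. Prx1-Cre places the recombinase under regulatory sequence of Prrx1, itself a gene of the group, and is active in the mesenchyme of limb and skull. The labels do not say whether the WT mice carried the Cre transgene or the loxP-flanked alleles, and they do not say whether the replicates came from separate animals, so p-values measure only the spread between these libraries.

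These factors lay out the bones of the head before and while they form. ALX proteins are paired-type homeodomain proteins of the frontonasal and calvarial mesenchyme, and loss of Alx4 is known for skull vault defects. PRRX proteins are related homeodomain proteins that mark mesenchymal progenitors, SIX2 is a homeodomain factor of progenitor cells in the kidney and the face, TBX15 and TBX18 are T-box factors that shape mesenchymal condensations of the skull and the limb girdles, and ZIC1 is a zinc finger factor of the neural crest and the suture mesenchyme. TET enzymes oxidise methylated cytosine, which in mammals lies mostly in CpG dinucleotides, and so take part in DNA demethylation.

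Stretches of DNA just upstream of the start of 3 of these genes are printed here because they differ in how many CpG dinucleotides they hold. Whether these CpGs were methylated in the cells was not tested. They are RefSeq promoter sequences of build GRCm38.p6, cut to the bases outside the exons of the counted gene model. All lie on the minus strand and are written 5′ to 3′, and the capitals mark each CpG.
Prrx1, chr1:163313711-163313900: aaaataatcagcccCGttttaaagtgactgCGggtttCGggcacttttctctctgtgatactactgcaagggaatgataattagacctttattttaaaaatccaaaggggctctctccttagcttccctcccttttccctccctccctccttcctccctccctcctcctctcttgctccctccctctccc
Six2, chr17:85688275-85688504: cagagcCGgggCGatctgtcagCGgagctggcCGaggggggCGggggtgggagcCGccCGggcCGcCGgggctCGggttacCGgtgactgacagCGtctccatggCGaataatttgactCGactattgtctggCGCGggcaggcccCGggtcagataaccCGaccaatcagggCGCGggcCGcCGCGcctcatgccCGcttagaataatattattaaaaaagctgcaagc
Zic1, chr9:91365811-91366018: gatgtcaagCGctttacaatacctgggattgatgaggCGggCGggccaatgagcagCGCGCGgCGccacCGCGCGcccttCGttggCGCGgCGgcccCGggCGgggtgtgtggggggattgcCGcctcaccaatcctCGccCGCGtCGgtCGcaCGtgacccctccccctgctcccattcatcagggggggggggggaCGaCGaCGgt

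The printed stretch of Prrx1 holds 3 CpGs, that of Six2 holds 24 and that of Zic1 holds 26. Over the full 250 upstream bases, 5 of the 8 genes had an entry. Zic1 held 27 CpGs there, Six2 26, Prrx2 21, Tbx18 15 and Prrx1 4, where the median of all 32851 promoters in the table was 6. The CpG count of Prrx1 was above that of 37.8% of all promoters, and that of Zic1 was above 91.4%. The core motif of RUNX factors, TGTGGT or ACCACA on the other strand, was found in 0 of the 5 and in 14% of all promoters of this length. Alx1, Alx4 and Tbx15 were not in the promoter table. The 8 genes lie on 6 chromosomes, with Alx4 and Prrx2 both on chromosome 2, and Tbx18 and Zic1 both on chromosome 9.

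The libraries held between 8019999 and 10177214 counts. A gene with 0 counts could still hold up to 3 at this depth, or 0.299 to 0.373 CPM (counts scaled to a library of 1000000), counting error only. Replicates 1 and 2 of each genotype resembled each other more than replicate 3, in which 2.22% (WT) and 2.47% (TCKO) of the counts came from mitochondrial genes, against 1.11% to 1.24% in the other libraries. TCKO replicate 3 was also the 1 library with a high count of Xist (4583, against 1 to 4 elsewhere) and the 1 library with 0 counts of the Y-linked gene Ddx3y. Values are therefore also given within replicates 1 and 2 and within replicate 3. Among the targeted genes, Tet1 fell (98, 131 and 115 counts for WT, 68, 51 and 51 for TCKO; log2 fold change -0.97 ± 0.16 (SE), edgeR adjusted p = 0.00648). Tet2 stood at -0.14 ± 0.14 (edgeR adjusted p = 0.545), and Tet3 rose by 0.51 ± 0.09 (edgeR adjusted p = 0.00745). Only 1 of the 3 targeted genes was thus lower in the libraries labelled TCKO, and counts over whole genes do not show whether the loxP-flanked exons were removed. Of the early osteoblast markers, Col1a1 stood at a mean RPKM (CPM per kilobase of exon) of 3403 in WT and Runx2 at 10.8. Alpl, another early marker, stood at a mean RPKM of 7.53 in WT but 0.636 in TCKO. The late markers Bglap, Bglap2 and Dmp1 had at most 5 counts in any library.

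Of the 8 patterning factors, Alx4 and Prrx1 fell in TCKO and none rose. A gene passed at an adjusted p-value under 0.05 (edgeR quasi-likelihood test, Benjamini-Hochberg adjustment over all 13826 tested genes). That is 2 of 8 lower, where 8.63% of all tested genes passed lower, and 0 of 8 higher, where 9.07% of all tested genes passed higher. At an unadjusted p under 0.05 there were 3 lower and 0 higher, where 16% and 16.5% of all tested genes were. DESeq2 likewise passed 3 lower and 0 higher, where 8.54% and 9.11% of the genes with an adjusted p passed. None of the 8 passed with a change of more than 2-fold, which 6.35% of all tested genes did, and no 95% interval of the 8 reached a 2-fold change in either direction. In 3 of 8 genes, Alx4, Six2 and Prrx1, every TCKO library was below every WT library, where 18.9% of all tested genes showed this. The log2 fold change was negative in 7 of the 8, with a median of -0.26 against 0.00 over all tested genes. Because the RNA came from bulk cultures, fewer cells of a type and less RNA per cell cannot be told apart.

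**Figure D1:**
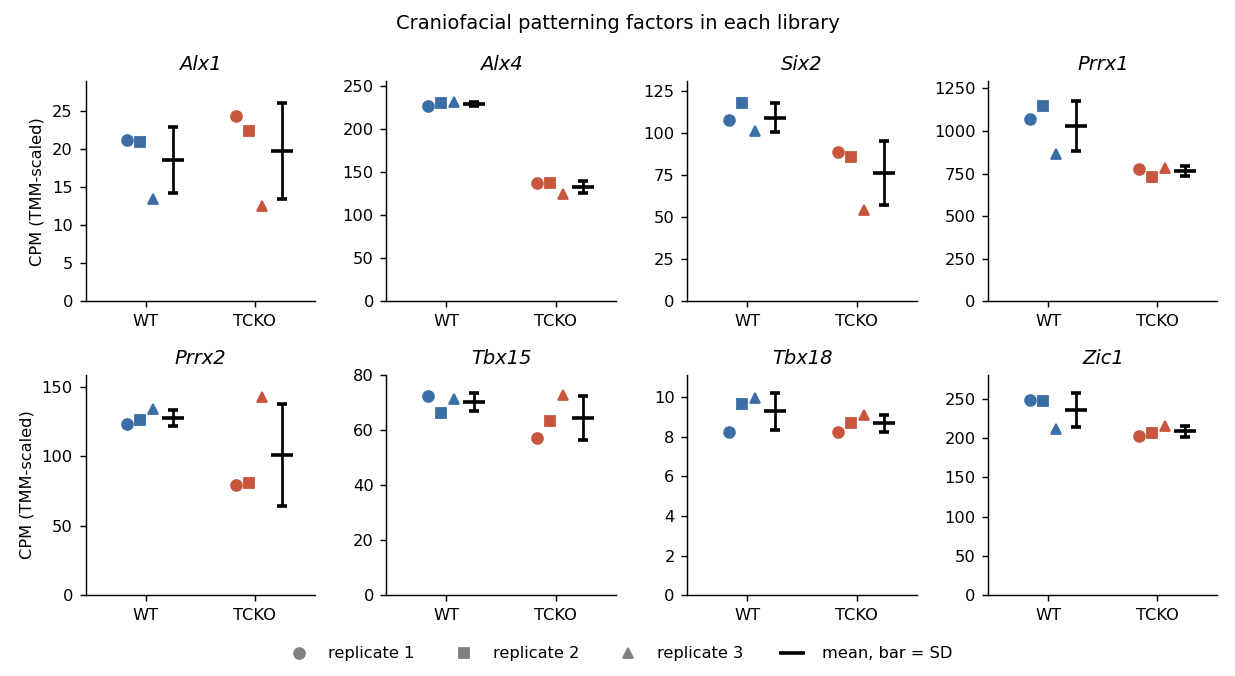
CPM (scaled with TMM factors, linear axes from 0) of the 8 patterning factors in each library, with WT in blue, TCKO in red, a marker shape for each replicate number, and the mean with its SD over 3 libraries as a black bar. Alx4 lies between 227 and 231 CPM in WT and between 125 and 137 CPM in TCKO, while Prrx2 is low in TCKO replicates 1 and 2 only and Alx1 is low in replicate 3 of both genotypes.

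Alx4 (ENSMUSG00000040310, chromosome 2, 93642384 to 93681339, GRCm38, plus strand) encodes a homeodomain factor of the cranial and limb mesenchyme that is needed for normal ossification of the parietal bones. Replicates 1, 2 and 3 held 1872, 2306 and 1908 Alx4 counts for WT, against 1200, 1103 and 1114 for TCKO. The WT libraries were nearly level, at 227, 230 and 231 CPM, and the TCKO libraries lay well below them, at 137, 137 and 125 CPM. The TCKO level was 0.58 of the WT level (95% interval 0.519 to 0.649; log2 fold change -0.79 ± 0.07 (SE), edgeR adjusted p = 0.000462). The fall had a similar size in both sets of libraries, with log2 fold changes of -0.74 within replicates 1 and 2 and -0.89 within replicate 3. It passed without each of the 6 libraries in turn. Ext2, a heparan sulfate synthesis gene on the opposite strand, overlaps the span of Alx4 but shares 0 bp of exon with it, and differed by -0.03 in log2 (edgeR adjusted p = 0.822).

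Alx1 (ENSMUSG00000036602, chromosome 10, 102998707 to 103030215, minus strand), the paralog of Alx4 that acts in the frontonasal mesenchyme, did not pass the test. Its counts were 175, 210 and 111 for WT and 214, 180 and 111 for TCKO. Replicate 3 was low in both genotypes (13.5 CPM in WT and 12.5 in TCKO), the other libraries lay higher, up to 24.4 CPM, and the genotypes overlapped. The log2 fold change was 0.09 ± 0.27 (SE), with a 95% interval from -0.54 to 0.72 and an edgeR adjusted p of 0.856. A change of any size inside that interval remains possible. The sign turned when WT replicate 3 was left out (-0.10). Gm17028, a model on the same strand, shares 243 bp of exon with Alx1 and had 4 to 25 counts in the libraries. How reads in the shared bases were counted is not stated, so they cannot be assigned to either gene with certainty.

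Prrx1 (ENSMUSG00000026586, chromosome 1, 163245119 to 163313710, minus strand), the homeodomain factor of mesenchymal progenitors, was the most abundant of the 8. The WT libraries held 8842, 11501 and 7117 Prrx1 counts, and the TCKO libraries held 6824, 5888 and 6975. The WT libraries spread from 863 to 1148 CPM and the TCKO libraries only from 732 to 782 CPM, with no overlap between the genotypes. Prrx1 fell to 0.744 of the WT level (95% interval 0.619 to 0.895; log2 fold change -0.43 ± 0.11 (SE), edgeR adjusted p = 0.0392). The log2 fold change was -0.55 within replicates 1 and 2 and -0.14 within replicate 3, where WT was lowest. The call was lost without WT replicate 1 (-0.40, edgeR adjusted p = 0.14), WT replicate 2 (-0.34, 0.149), TCKO replicate 1 (-0.44, 0.113) or TCKO replicate 2 (-0.40, 0.136). It was also lost when replicates 1 and 2 of a genotype were summed into 1 sample (-0.36, edgeR adjusted p = 0.348). Over all tested genes the number passed fell in these fits as well. It was 2447 with all 6 libraries, between 1153 and 1342 without 1 of the libraries named, and 386 with the sum.

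Prrx2 (ENSMUSG00000039476, chromosome 2, 30834972 to 30881251, plus strand) is the closest relative of Prrx1 and overlaps with it in function in the jaw and limb. Its counts were 1014, 1267 and 1109 for WT and 692, 648 and 1279 for TCKO. The WT libraries lay between 123 and 134 CPM. TCKO replicates 1 and 2 were lower, at 79.0 and 80.5 CPM, but TCKO replicate 3, at 143 CPM, was the highest of all 6. The log2 fold change over all libraries was -0.34 ± 0.22 (SE; 95% interval -0.84 to 0.16, edgeR adjusted p = 0.33). It was -0.64 within replicates 1 and 2 and 0.09 within replicate 3. Without TCKO replicate 3 it passed, at -0.68 (edgeR adjusted p = 0.000895). TCKO replicate 3 is the library that differs in Xist and Ddx3y, and it shares the higher mitochondrial share with WT replicate 3; the part of these differences in the result was not tested.

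Six2 (ENSMUSG00000024134, chromosome 17, 85684277 to 85688274, minus strand), a homeodomain progenitor factor, was counted 889, 1178 and 832 times in WT replicates and 780, 689 and 485 times in TCKO replicates. WT replicates 1, 2 and 3 stood at 108, 118 and 101 CPM, and TCKO at 89.0, 85.6 and 54.4 CPM, so the genotypes did not overlap and TCKO replicate 3 was the lowest library. The log2 fold change was -0.51 ± 0.18 (SE; 95% interval -0.92 to -0.10), at an unadjusted p of 0.02 and an edgeR adjusted p of 0.0847. Whether Six2 passed depended on the model. With the replicate number as a block it passed, at -0.54 (edgeR adjusted p = 0.0206), and 3 of the 8 factors then passed lower, where 11.5% of all tested genes did. DESeq2 gave an adjusted p of 0.0447, and without TCKO replicate 3 the log2 fold change shrank to -0.31 with an edgeR adjusted p of 0.0371. With replicates 1 and 2 summed it did not pass, either without the block (-0.59, edgeR adjusted p = 0.272) or with it (0.0741). Replicates 1 and 2 alone gave -0.37, and replicate 3 alone gave -0.89.

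Zic1 (ENSMUSG00000032368, chromosome 9, 91358058 to 91365810, minus strand), the zinc finger factor of neural crest and suture cells, was counted 2058, 2475 and 1739 times for WT and 1774, 1669 and 1930 times for TCKO. In WT, replicates 1 and 2 stood at 249 and 247 CPM and replicate 3 at 211, within the reach of the TCKO libraries at 203, 207 and 216 CPM. Its log2 fold change was -0.17 ± 0.09 (SE; 95% interval -0.37 to 0.02, edgeR adjusted p = 0.204). Without WT replicate 3 it was -0.25 (edgeR adjusted p = 0.0348). Zic4, a relative on the opposite strand that shares 60 bp of exon with Zic1, differed by -0.12 in log2 (edgeR adjusted p = 0.625). Whether counting used the strand is not stated, so reads in the shared bases cannot be assigned to either gene with certainty.

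Tbx15 (ENSMUSG00000027868, chromosome 3, 99240381 to 99354259, plus strand), a T-box factor of the skull base and the shoulder girdle, was counted 599, 665 and 589 times for WT and 500, 511 and 648 times for TCKO. TCKO replicates 1 and 2, at 57.1 and 63.5 CPM, lay below the WT libraries (66.4 to 72.5 CPM), and TCKO replicate 3, at 72.7 CPM, was level with the highest of them. Its log2 fold change was -0.12 ± 0.10 (SE; 95% interval -0.35 to 0.11, edgeR adjusted p = 0.455). Tbx18 (ENSMUSG00000032419, chromosome 9, 87702800 to 87731260, minus strand), its close relative, was counted 68, 97 and 82 times for WT and 72, 70 and 81 times for TCKO. Its libraries lay between 8.22 and 9.94 CPM with the genotypes mixed, and its log2 fold change was -0.10 ± 0.15 (SE; 95% interval -0.44 to 0.24, edgeR adjusted p = 0.685). D030062O11Rik, on the opposite strand, shares 970 bp of exon with Tbx18 and had at most 11 counts in a library. As for Zic1, reads in the shared bases cannot be assigned to either gene with certainty. For both T-box genes the intervals hold no fall as large as that of Alx4 (-0.79).

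**Figure D2:**
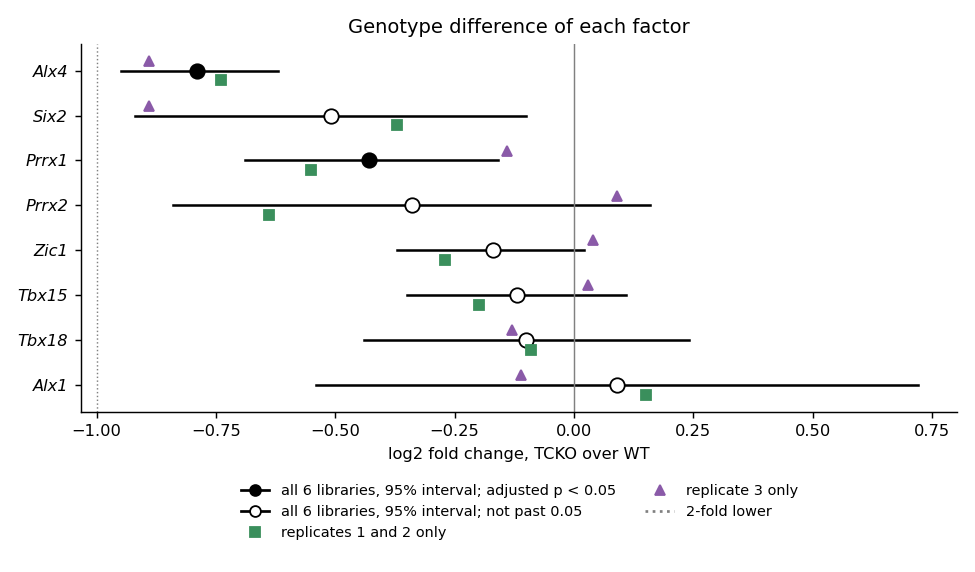
Log2 fold change of TCKO over WT for each factor, with black circles and lines for all 6 libraries and the 95% interval (filled where the edgeR adjusted p is under 0.05), green squares for replicates 1 and 2, and purple triangles for replicate 3. Alx4 and Six2 are lower by 0.89 within replicate 3, while Prrx2, Zic1 and Tbx15 are negative within replicates 1 and 2 and between 0.03 and 0.09 within replicate 3.

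Within replicates 1 and 2 alone, 7 of the 8 factors had a negative difference and 6 passed lower, where 22.5% of all tested genes passed lower. The libraries of this set are the ones that resemble each other most, and the part of this in the count was not tested. Within replicate 3, 5 of the 8 had a negative difference. Only 4 of the 8, Alx4, Six2, Prrx1 and Tbx18, were negative in both sets.

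Levels can be compared between genes once counts are divided by exon length. In WT the order of mean RPKM was Prrx1 (92.8 ± 13.3, SD, n = 3), Prrx2 (65.2 ± 3.04), Six2 (51.3 ± 3.96), Zic1 (41.4 ± 3.79), Alx4 (32.5 ± 0.341), Tbx15 (18.7 ± 0.876), Alx1 (3.22 ± 0.764) and Tbx18 (1.97 ± 0.195). No neighbours in this order overlapped in their libraries. Prrx1 was above 96.0% of all tested genes in WT and Tbx18 above 24.9%, so the group spans highly and weakly transcribed genes. In TCKO the order was Prrx1 (69.1 ± 2.55 RPKM), Prrx2 (51.5 ± 18.8), Zic1 (36.7 ± 1.25), Six2 (36.0 ± 9.01), Alx4 (18.8 ± 0.988), Tbx15 (17.2 ± 2.09), Alx1 (3.43 ± 1.11) and Tbx18 (1.84 ± 0.0921). Here Prrx1 and Prrx2, Zic1 and Six2, and Alx4 and Tbx15 overlapped in their libraries and were not separated beyond their spread. The mean of Alx4 was 1.74 times that of Tbx15 in WT and 1.1 times in TCKO. Without TCKO replicate 3, 5 of the 8 genes kept their rank in TCKO.

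**Figure D3:**
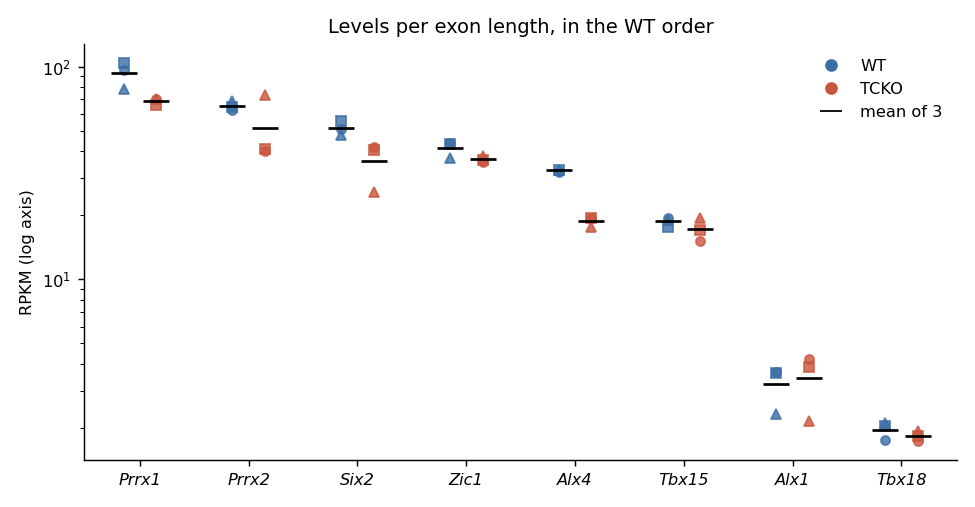
RPKM (log axis) of the 8 factors in the order of their WT means, with WT libraries in blue, TCKO libraries in red, a marker shape for each replicate number (circle 1, square 2, triangle 3) and the mean of 3 libraries as a black line. Prrx1 leads in both genotypes, at means of 92.8 and 69.1 RPKM, and Alx1 and Tbx18 lie far below the other 6, at means between 1.84 and 3.43 RPKM.

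A ratio between paralogs within a library does not depend on how libraries are scaled. The ratio of Alx1 to Alx4 counts was 0.0937, 0.0913 and 0.0584 in WT and 0.179, 0.164 and 0.1 in TCKO, so every TCKO library was above every WT library. The mean log2 ratio was higher by 0.85 in TCKO. The exact two-sided permutation test gave p = 0.1, the smallest that 3 against 3 libraries allow, and an adjusted p of 0.3 over the 3 ratios. The ratio of Prrx1 to Prrx2 was 8.72, 9.07 and 6.42 in WT and 9.85, 9.08 and 5.45 in TCKO, low in replicate 3 of both genotypes (difference in log2 -0.02, exact permutation p = 1.0). The ratio of Tbx15 to Tbx18 was between 6.83 and 8.75 in all libraries (difference in log2 -0.03, exact permutation p = 0.9). Both had an adjusted p of 1.0.

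**Figure D4:**
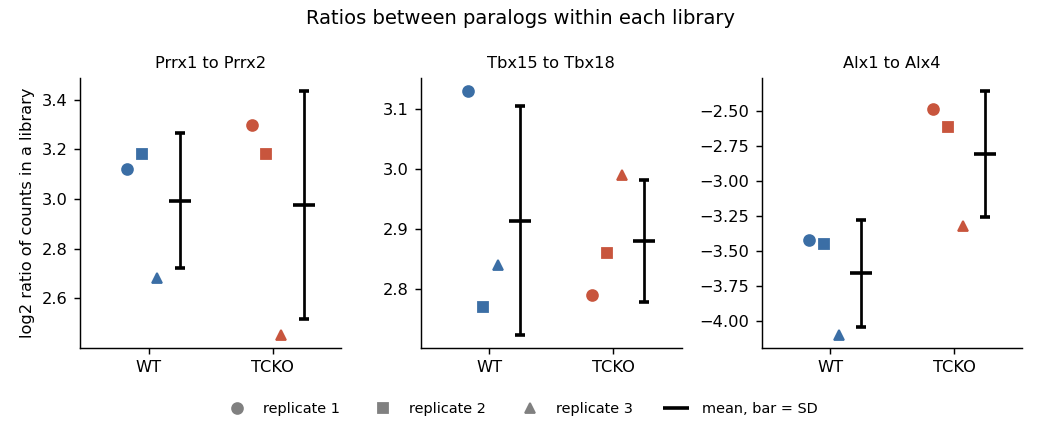
Log2 ratio of counts between paralogs within each library (0.5 added to each count), with WT in blue, TCKO in red and the mean with its SD over 3 libraries as a black bar; the axes do not start at 0. The mean log2 ratio of Alx1 to Alx4 is -3.66 in WT and -2.81 in TCKO, and the other pairs overlap between the genotypes.

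The factors did not follow 1 shared pattern across libraries. Over the 6 libraries, Pearson's r of log2 CPM was 0.94 between Prrx1 and Zic1, 0.88 between Prrx2 and Tbx15, 0.83 between Alx4 and Prrx1, and -0.77 between Alx1 and Prrx2. These points share genotype and replicate number and are given as a description. Among 9262 genes with a mean of at least 100 counts, the profile most like that of Alx4 was that of Rassf5, followed by Prss35 (both r = 0.999), and these fell by 1.39 and 3.81 on the log2 scale. Closest to Prrx1 were Zfp84 (r = 0.996) and Eda2r (0.995), to Six2 Tor3a (0.994) and Slc1a4 (0.992), and to Zic1 Anapc2 and Gm10080 (both 0.997). Prrx2 was closest to Prss23 (0.997) and Ghdc (0.992), Tbx15 to Chpf (0.987) and Tssc4 (0.986), and Alx1 to Prps1l3 (0.998) and Ccni (0.995). Tbx18 was below the minimum and was not searched. These genes are the best of 9262 over only 6 libraries that share genotype and replicate number. Every member searched reached an r of at least 0.986, and shared regulation was not tested.

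The nearest tested genes on the chromosome that do not overlap a member were read to see whether its difference was shared by its surroundings. Overlapping genes are given with each member above. Gorab, a Golgi protein gene 71.2 kb from Prrx1, fell by 0.39 on the log2 scale (edgeR adjusted p = 0.0303). As for Prrx1, this call was lost without replicate 1 or 2 of either genotype (edgeR adjusted p between 0.0958 and 0.12). Prrc2c, on the other side of Prrx1, had a log2 fold change of 0.14 (0.237). Camkmt, a methyltransferase gene 226 kb from Six2, fell by 1.45 (edgeR adjusted p = 0.0446) with 3 to 18 counts in the libraries, a call that held only without TCKO replicate 3 among the libraries left out in turn (0.063 to 0.147 without the others). AC166821.1, 5.36 kb from Six2, differed by -0.43 in log2 (edgeR adjusted p = 0.0939). Beside Alx4, Cd82 had -0.55 (edgeR adjusted p = 0.059, 0.0426 with the replicate block and 0.142 with the block on summed replicates 1 and 2) and Accs -0.04 (0.894). Slc6a15, 338 kb from Alx1, rose by 1.30 (edgeR adjusted p = 0.0166), a call lost without replicate 1 or 2 of either genotype (0.0547 to 0.077). Plscr1, 884 kb from Zic1, rose by 1.16 (edgeR adjusted p = 0.00238). The neighbours on the other side of Alx1 and Zic1 did not pass (-0.18 and -0.21 in log2, edgeR adjusted p = 0.546 and 0.425). The nearest neighbours of Prrx2, Tbx15 and Tbx18 did not pass, among them Ptges, 8.22 kb from Prrx2 (0.27, edgeR adjusted p = 0.241, 0.0334 with the replicate block and 0.176 with the block on summed replicates 1 and 2), and Wars2, only 1.2 kb from Tbx15, at -0.02 (edgeR adjusted p = 0.943).

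Other factors that pattern the head were counted in 11 lists of related families, 116 genes in all. Of these, 51 could be tested, 8 fell and 10 rose, which is 35.3% of them against 17.7% of all tested genes, and their median log2 fold change was 0.00. With a change of more than 2-fold, 9 of the 51 passed (17.6%, against 6.35% of all tested genes and 0 of the 8 patterning factors). Neither difference was tested, and the lists were chosen with earlier results known. With replicates 1 and 2 summed, 3 of the 51 passed, where 386 of all 13826 tested genes did. The 3 were Eya2 and Foxd1, lower, and Osr1, higher (edgeR adjusted p = 0.014, 0.0225 and 0.0226).

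SIX2 and its relatives act with EYA and DACH cofactors. Of 9 tested genes of these families, 3 fell and 2 rose, where 8.63% of all tested genes passed lower and 9.07% higher. Eya2, a transcriptional coactivator and phosphatase, fell most, from 143, 192 and 121 counts in WT to 24, 24 and 25 in TCKO (log2 fold change -2.58 ± 0.17 (SE), edgeR adjusted p = 0.000127). Every TCKO library of Eya2 was far below every WT library. Eya1 fell by 1.11 (edgeR adjusted p = 0.0111), a call lost without WT replicate 2 (-1.03, 0.0532) or TCKO replicate 2 (-1.03, 0.0504). Eya4 fell by 0.80 (edgeR adjusted p = 0.0366), a call that held only without WT replicate 3 and was lost, at adjusted p between 0.0624 and 0.136, without each of the other 5 libraries. Dach1, a corepressor, rose from 2, 1 and 2 counts in WT to 16, 10 and 22 in TCKO (edgeR adjusted p = 0.0049), a ratio of 9.9 with a counting interval from 3.96 to 31.9. Six3, the neighbour of Six2 in the family, had at most 1 count in a library. Six4, named after its values were seen, rose by 0.57 (edgeR adjusted p = 0.0259), which was lost without WT replicate 2 (0.53, 0.105), TCKO replicate 1 (0.57, 0.0854) or TCKO replicate 2 (0.48, 0.101).

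Among 9 forkhead factors, 3 fell and 1 rose, where 8.63% of all tested genes passed lower and 9.07% higher. Foxd1, a marker of stromal and craniofacial mesenchyme, fell by 1.27 ± 0.11 (SE; edgeR adjusted p = 0.000499), from 572, 684 and 495 counts in WT to 233, 253 and 216 in TCKO. Foxc1, a regulator of skull vault growth and the most abundant of the list, fell by 0.83 (edgeR adjusted p = 0.0111), a call lost without WT replicate 2 (-0.77, 0.0536). Foxc2, its relative, fell by 1.16 (edgeR adjusted p = 0.038), and passed only without TCKO replicate 3, with adjusted p between 0.0747 and 0.125 without each of the other 5 libraries. Foxp1 rose by 0.93 ± 0.12 (edgeR adjusted p = 0.00209), from 451, 552 and 536 counts to 1062, 945 and 839. The changes of Foxd1 and Foxp1 passed without each library in turn.

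In the other homeodomain lists, genes moved in both directions. Of 3 further paired-class genes tested, Pax9, a jaw and tooth factor, fell by 2.74 ± 0.48 (SE; edgeR adjusted p = 0.008), from 25, 21 and 11 counts to 2, 2 and 4. Of 5 DLX and MSX genes, Msx2, a suture factor, rose by 0.50 (edgeR adjusted p = 0.0135), a call lost without WT replicate 2 (0.49, 0.0648). Lhx6, a jaw factor, rose by 2.47 ± 0.45 (edgeR adjusted p = 0.00905), with 3 to 5 counts in WT and 12 to 30 in TCKO. En1, which patterns the calvarial mesenchyme, rose by 0.28 (edgeR adjusted p = 0.0428), a call that held without TCKO replicate 3 and was lost, at adjusted p between 0.0639 and 0.146, without each of the other 5 libraries. The call of En1 was also lost with DESeq2 (adjusted p = 0.102) and with a filter of RPKM over 0.24 (edgeR adjusted p = 0.0543). Among 8 TALE homeobox factors, Meis1 rose by 0.87 (edgeR adjusted p = 0.012), lost without WT replicate 1 (0.81, 0.057). Pbx3 rose by 0.58 (edgeR adjusted p = 0.0254), lost without WT replicate 1 (0.54, 0.0994), WT replicate 2 (0.54, 0.103) or TCKO replicate 1 (0.61, 0.0687). Pbx2, the most abundant of that list, had 0.24 (edgeR adjusted p = 0.21).

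Osr1, a zinc finger factor of mesenchyme and the only tested odd-skipped or AP-2 gene, rose by 1.66 ± 0.15 (SE; edgeR adjusted p = 0.000455), from 102, 116 and 110 counts in WT to 307, 283 and 420 in TCKO, with no overlap. HOX genes, which pattern the trunk and are silent in most of the head, were largely absent, with 20 of 39 at 0 in every library and 2 tested. Of these, Hoxd8 rose by 2.14 (edgeR adjusted p = 0.0161), with 4 to 9 counts in WT and 18 to 46 in TCKO, a call lost without WT replicate 1 (1.93, 0.0693) or WT replicate 2 (2.31, 0.0585).

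In 3 lists 0 tested genes passed by the edgeR test. At an unadjusted p under 0.05 there were 2 of 4 ZIC genes, 0 of 2 T-box genes and 1 of 4 basic helix-loop-helix genes. Of all tested genes, 16% were lower and 16.5% higher at that threshold. DESeq2 passed 0, 0 and 1, where 8.54% of the genes with an adjusted p passed lower and 9.11% higher. With the replicate block 1, 0 and 2 passed, where 3249 of all 13826 tested genes did. With that block and replicates 1 and 2 summed none of them passed (0, 0 and 0), where 1150 of all tested genes did. Among 4 further ZIC genes, Zic2 was the most abundant and differed by 0.25 in log2 (edgeR adjusted p = 0.149). It passed without TCKO replicate 3 (0.34, 0.0425). Of 2 further T-box genes tested, Tbx2 had 0.05 (edgeR adjusted p = 0.955), and Tbx5 and Tbx22 were at 0 in every library. Of 4 mesenchymal basic helix-loop-helix genes, Twist1, a suture factor and the most abundant of them, stood at 70.3 RPKM in WT and 85.4 in TCKO (log2 fold change 0.28 ± 0.13 (SE), edgeR adjusted p = 0.171). It passed with the replicate number as a block (edgeR adjusted p = 0.0307), but not with the block and replicates 1 and 2 summed (0.15).

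**Figure D5:**
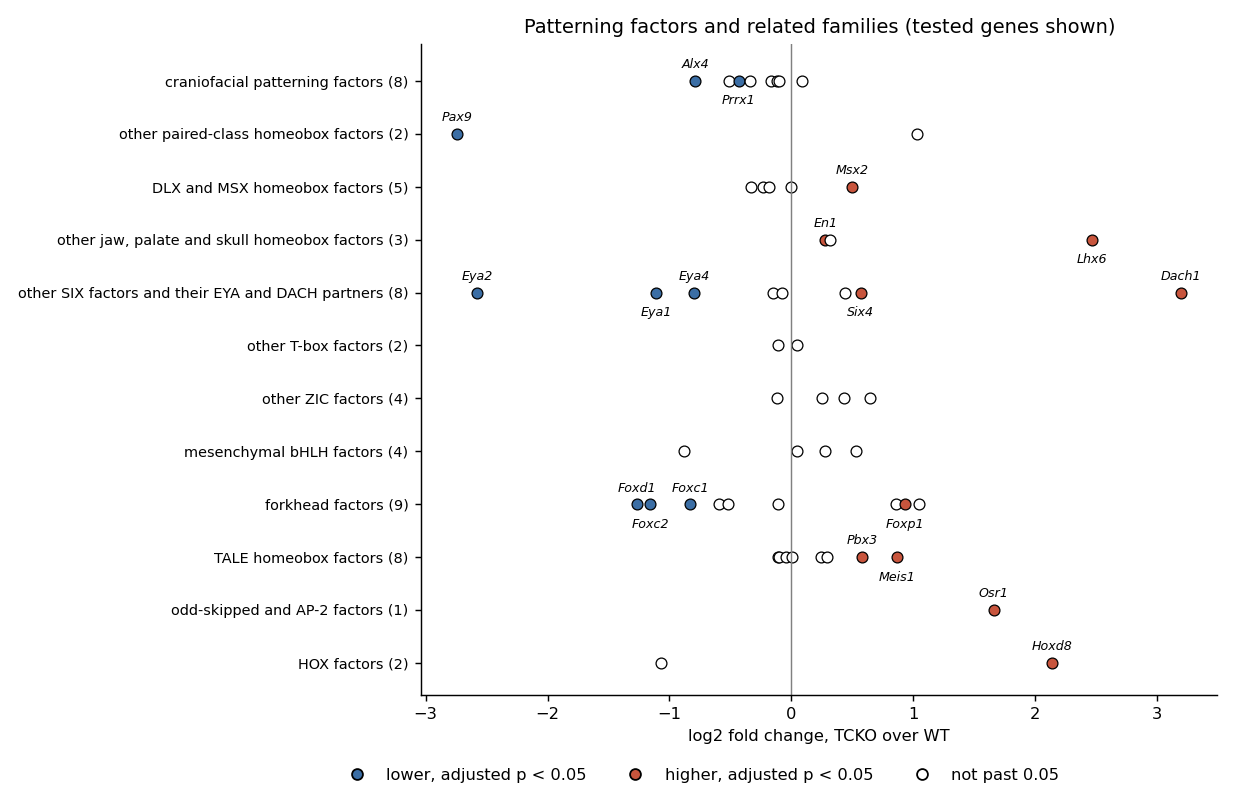
Log2 fold change of TCKO over WT for the 8 patterning factors and for tested genes of 11 related lists (number shown in brackets), with blue for lower and red for higher at an edgeR adjusted p under 0.05 and white for genes that did not pass. The 8 factors span -0.79 to 0.09, while the related lists span -2.74 (Pax9) to 3.20 (Dach1).

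Markers of other cells that such cultures can hold also moved with genotype, and the part of these markers in the results above was not tested. Of all tested genes, 8.63% passed lower and 9.07% higher, and 11.5% passed lower with the replicate block. Of 11 tested chondrocyte markers (12 listed), 10 fell, with a median log2 fold change of -2.86, and the summed level of the list was 6467 to 8415 CPM in WT and 728 to 1003 CPM in TCKO. Of 7 tested osteoblast markers (11 listed), 3 fell, or 5 with the replicate block and 2 with the block and replicates 1 and 2 summed, and the list summed to 30261 to 32590 CPM in WT and 14305 to 22453 CPM in TCKO. Runx2, the master regulator of osteoblasts, fell by 0.45 ± 0.07 (SE; edgeR adjusted p = 0.00397), a call lost with replicates 1 and 2 summed (0.102, and 0.058 with the block). Sp7, its downstream factor, differed by -1.59 ± 0.55 in log2 (edgeR adjusted p = 0.0877) and passed with the replicate block (-1.68, 0.000152) or without TCKO replicate 3 (-2.41, 0.0094). Of 3 tested meningeal fibroblast markers (9 listed), 2 rose, Crabp2 and Dpp4, and the list summed to 3.64 to 5.79 CPM in WT and 14.7 to 34.2 CPM in TCKO, while the meningeal transporters Slc22a6 and Slc47a1 were at 0 in every library. Near the floor, Ptgds and Cldn11 had up to 4 counts in a WT library and 0 in every TCKO library, and Slc13a4 had 3 to 5 in WT and 0 to 4 in TCKO. Of 11 haematopoietic markers, 3 fell, or 11 with the replicate block and 3 with the block and replicates 1 and 2 summed (420 to 798 CPM in WT and 169 to 596 CPM in TCKO in sum). Of 2 tested endothelial markers (8 listed), Kdr and Esam, both rose, while the defining markers Pecam1 and Cdh5 had at most 7 counts in a library. Of 5 tested mural cell markers (7 listed), 3 fell and 1 rose (728 to 743 CPM in WT and 437 to 458 CPM in TCKO in sum). Of 7 tested skeletal muscle markers 1 rose, of 4 tested Schwann cell and neuron markers 1 fell and 1 rose, of 2 tested adipocyte markers 1 fell, and no epithelial marker could be tested.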

How the data were processed

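RNA-seq libraries were made from polyA RNA with a directional kit, 3 per genotype, and grouped by their titles. The authors aligned reads to GRCm38 with STAR 2.7.0e and counted them over exons of the Ensembl 99 annotation with featureCounts 2.0.0; the deposited values are raw counts per gene, not normalized, with exon lengths in bp. Whether counting used the strand is not given in the sources used here. All value columns were assigned (0 left over) and 0 rows lacked a gene name; symbols matched 55144 genes (99.4%).

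Counts were tested with edgeR 4.0.16 in R 4.3.3 (filterByExpr, TMM factors, quasi-likelihood test, two-sided, genotype only, Benjamini-Hochberg adjustment over 13826 genes), checked on simulated data. The simulated libraries were independent draws with the same spread for every gene. The check therefore does not cover the likeness of replicates 1 and 2 in these data. RPKM used the deposited lengths. Paralog ratios were compared by exact permutation. Alternatives were other scaling factors and filters, DESeq2 1.42.0, autosomal genes only, a robust fit, a replicate block, a batch term for replicate 3, replicates 1 and 2 summed or alone, and each library left out.

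The members and gene lists were chosen with earlier results of these data known. Genes named were the members, the TET genes, Runx2 and Sp7, in each related list those that passed (at most 4, by size) and the most abundant, the 2 genes most alike in profile, nearest tested neighbours, overlapping genes, and markers given for their level. Of the genes this rule selects, 3 are not reported here and not plotted, but they stay in the fits and list counts.

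The replicate numbers were taken to pair the libraries, because deviations from the genotype means correlated between same-numbered libraries (0.204, 0.214 and 0.347). They did not separate replicates 1 and 2 from each other (WT replicate 2 with TCKO replicate 1, 0.225).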

Additional observations from a re-analysis of the deposited data

How the results depend on the processing

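The 2 members that passed lower became 1 with replicates 1 and 2 summed, with or without the replicate block, 6 within replicates 1 and 2, and 1 to 4 with a library left out. The 8 related factors that passed lower became 2 with replicates 1 and 2 summed and 13 within replicates 1 and 2, and the 10 that passed higher became 1 and 17. With the batch term the number higher was 16, and with the summed counts and replicate block 5. With a library left out, 4 to 9 passed lower and 5 to 13 higher, the difference in the log2 ratio of Prrx1 to Prrx2 lay between -0.18 and 0.25 and that of Tbx15 to Tbx18 between -0.10 and 0.08. With replicates 1 and 2 summed, Tet1 (-1.03, adjusted p = 0.0797) and Tet3 (0.52, 0.0878) did not pass. Alx1 turned negative without WT replicate 3 (-0.10), TCKO replicate 1 (-0.10) or TCKO replicate 2 (-0.01) and was 0.34 without TCKO replicate 3. The difference in the log2 ratio of Prrx1 to Prrx2 turned positive without WT replicate 1 (0.05), WT replicate 2 (0.07) or TCKO replicate 3 (0.25), and that of Tbx15 to Tbx18 without WT replicate 1 (0.08) or TCKO replicate 1 (0.01). With TCKO replicate 3 left out, 5 genes kept their rank in TCKO. Alx4 passed under every alternative that was tested (log2 fold change -0.81 to -0.74, adjusted p at most 0.034). Over all genes the number passed was 2447, 3249 with the replicate block and 4272 with the batch term. It was 386 with replicates 1 and 2 summed, 1150 with the summed counts and replicate block, and 6237 within replicates 1 and 2. It was 1236 without WT replicate 1, 1153 without WT replicate 2, 1292 without TCKO replicate 1 and 1342 without TCKO replicate 2. Without WT replicate 3 it was 3122, and without TCKO replicate 3 it was 2882. Calls lost or gained with a library left out are to be read beside these numbers. The cause was not tested. The block changed the calls of Six2, Twist1, Sp7, Cd82 and Ptges and of no other gene whose call is given above. Tbx18 had the fewest counts of the 8, 68 to 97 in a library.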
